A study of Caenorhabditis elegans with 30 samples.

Results

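The genome-wide landscape of trimethylated histone H3 lysine 9 (H3K9me3) was set against that of elongating RNA polymerase II (Pol II) in wild-type (WT, strain N2) Caenorhabditis elegans. The material was 5 ChIP-seq libraries, chosen by strain and antibody, of the 25 with values in the window table and of 30 samples in the whole series. The 3 H3K9me3 libraries came from animals fed OP50 bacteria, gfp RNAi bacteria or oma-1 RNAi bacteria, and the 2 Pol II libraries from animals on gfp RNAi or oma-1 RNAi, where gfp RNAi is the control feeding and oma-1 RNAi targets a gene of the germ line. All animals were synchronized young adults grown at 19 °C, and the RNAi feedings ran for about 3 generations. The measurement was the read density (RPKM) of each 1-kb window of the ce6 genome: of 100270 windows, 99742 were kept. These are not marked as misannotated in the table and average at least 3 RPKM over the 25 libraries.

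H3K9me3 is the histone mark of constitutive heterochromatin, which is linked to the silencing of repeats and transposons. In C. elegans it is concentrated on the distal arms of the autosomes, while the gene-dense chromosome centers carry most housekeeping and germline-expressed genes. The study reports that native targets of germline nuclear RNAi stayed transcriptionally silent in mutants without detectable H3K9me3. The Pol II antibody recognizes the C-terminal repeat of the enzyme phosphorylated on serine 2, the form that elongates through gene bodies. Whole animals were used, so a window with both signals may hold them in the same cells or in different cells, and fewer cells with a mark cannot be told apart from less of it per cell. Each mark was measured once per feeding. The feedings therefore served as the samples of a mark, and p-values measure only the spread between these samples, which includes any effect of feeding.

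The step of a single read in the low values gave depths of 3125000, 5546000 and 4340000 aligned reads for H3K9me3 (OP50, gfp RNAi and oma-1 RNAi, the order used throughout) and 4908000 and 4338000 for Pol II (gfp RNAi and oma-1 RNAi). The median window held 22, 47 and 34 H3K9me3 reads and 23 and 15 Pol II reads. Library medians were 7.04, 8.47 and 7.83 RPKM for H3K9me3 and 4.69 and 3.46 RPKM for Pol II. Libraries of a mark ranked the windows alike, with Spearman correlations of 0.80 to 0.85 for H3K9me3 and 0.87 for Pol II. The H3K9me3 libraries differed in contrast: the 95th percentile was 3.86, 2.16 and 2.91 times the median. Every library holds about the same total, so a level is relative to that library's own genome, and no input library was used to correct it.

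The H3K9me3 and Pol II signals opposed each other across windows, but only on the low side of the H3K9me3 scale. How much of that low signal is the mark and how much is background reads was not tested. A mutant strain reported to lack detectable H3K9me3 is described below. The Spearman correlation between the mean log2(RPKM + 1) of the marks was -0.43 over the 99742 windows, and between -0.42 and -0.36 for the 6 pairs of single libraries. Windows share libraries and neighbours, so these coefficients are descriptions with no p. Among the 49875 windows with the lower H3K9me3 levels the correlation was -0.60, and among the 49867 windows above the median it was 0.07.

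When the windows were ranked by H3K9me3 into 20 equal bins, the lowest bin had median H3K9me3 of 1.28, 4.32 and 2.53 RPKM and median Pol II of 15.1 and 17.8 RPKM. Median Pol II was highest in the third bin, at 17.7 and 20.3 RPKM, then fell to 3.46 and 2.54 RPKM in the 10th bin and stayed at those medians up to the 16th. In the highest bin, with median H3K9me3 of 38.7, 23.3 and 30.4 RPKM, it was 3.87 and 3.03 RPKM. The windows with the most H3K9me3 thus had no less Pol II than windows with a middling level of the mark, in either Pol II library. Of the windows rich in Pol II (defined below), 68.5% lay in the 4 lowest H3K9me3 bins.

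The opposite ranking gave the same shape. Over the 11 lowest bins of Pol II, median H3K9me3 in the OP50 library stayed between 7.36 and 8.32 RPKM. It then fell to 2.88 RPKM in the top bin, where the gfp RNAi and oma-1 RNAi libraries had 6.49 and 4.37 RPKM. Median H3K9me3 was thus low in the bins with the most Pol II and nearly level over the bins with little Pol II.

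**Figure D1:**
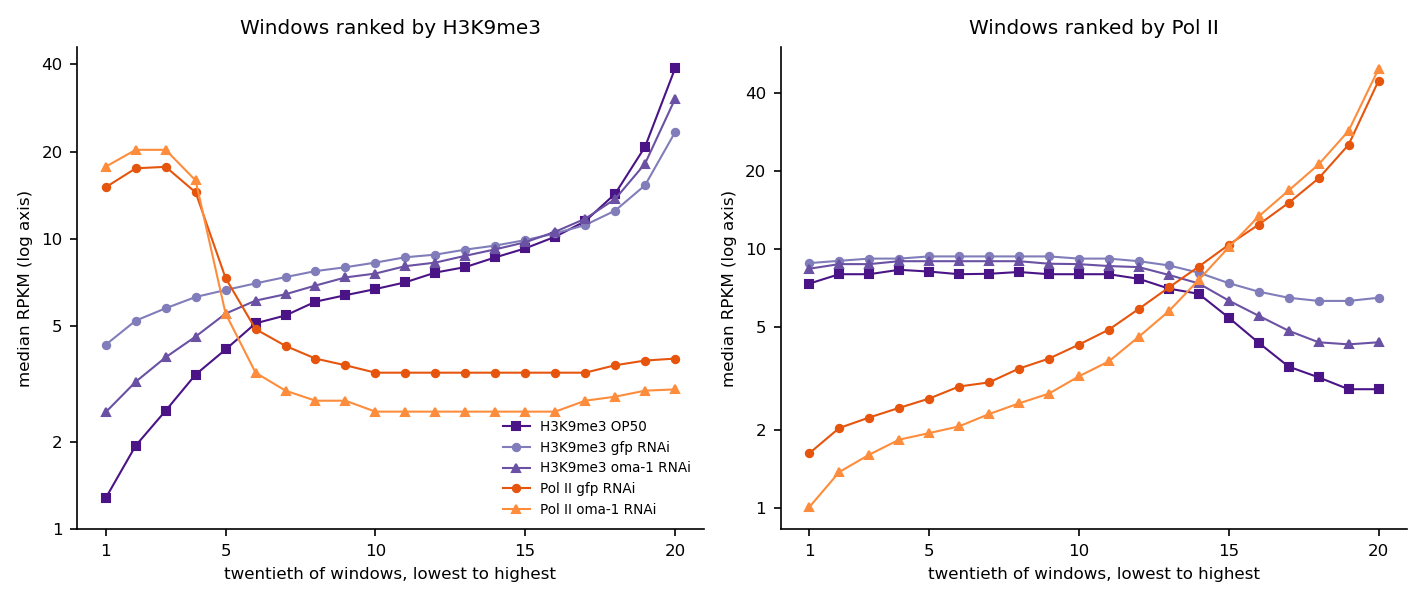
Median RPKM in each WT library (log axis) for 20 equal bins of windows, ranked by mean H3K9me3 (left) or mean Pol II (right); squares are OP50, circles gfp RNAi and triangles oma-1 RNAi. Pol II is 15.1 and 17.8 RPKM in the lowest H3K9me3 bin and 17.7 and 20.3 RPKM in the third, drops to a plateau of 3.46 and 2.54 RPKM, and ends at 3.87 and 3.03 RPKM in the highest.

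The relation grew with the size of the bins over which levels were averaged. The correlation was -0.58 for means over 10 kb, -0.67 over 100 kb and -0.71 over 1000 kb, the last across 100 bins. It also differed between parts of the genome. With each chromosome cut into 3 equal parts, the outer 2 called arms and the middle one the center, the correlation was -0.44 across windows of the autosome arms and -0.55 across windows of the autosome centers. Across the 17612 windows of the X chromosome it was -0.04, and between -0.09 and 0.02 for single library pairs. Among the autosomes it ran from -0.33 on chromosome V to -0.55 on chromosome III.

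The X chromosome had Pol II-rich windows without low H3K9me3. A window was called rich in a mark when it lay in the top 10% of all windows in every library of that mark. The limits of that class were 17.0, 13.9 and 15.7 RPKM for H3K9me3 and 22 and 24.4 RPKM for Pol II. At the 7772 Pol II-rich windows of the autosomes median H3K9me3 was 2.80, 6.31 and 4.14 RPKM, against 6.72, 8.29 and 7.71 RPKM at autosomal windows rich in neither mark. At the 310 Pol II-rich windows of X it was 8.00, 9.19 and 8.52 RPKM, against 7.36, 8.65 and 7.83 RPKM at X windows rich in neither.

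All 3 libraries thus had less H3K9me3 at autosomal Pol II-rich windows than at autosomal windows rich in neither. The ratios were 0.42, 0.76 and 0.54. On X all 3 had slightly more than at X windows rich in neither, with ratios of 1.09, 1.06 and 1.09. Windows rich in neither leave out H3K9me3-rich ones, whereas 30 of the 310 Pol II-rich X windows were H3K9me3-rich. Over all X windows median H3K9me3 was 7.36, 8.65 and 8.06 RPKM. Median Pol II was 41.1 and 40.8 RPKM at the Pol II-rich windows of X and 34.4 and 39.2 RPKM at the autosomal ones. Both sets had passed the same Pol II limits, so this likeness was partly set by the selection. The same windows were read in the 12 H3K9me3 libraries of the 4 mutant strains of the series, which were not used to call windows rich. The X ratio was above the autosomal ratio in 12 of 12, at 0.92 to 1.17 against 0.39 to 0.72. These libraries include the strain mutant for set-32, met-2 and set-25 (the triple mutant), which lacks 3 H3K9 methyltransferases. The study reports no detectable H3K9me3 in this strain. Its autosomal ratio was 0.60, 0.61 and 0.72, and its X ratio 0.93, 0.97 and 1.00. Reads of the H3K9me3 immunoprecipitation were therefore also scarce over autosomal Pol II-rich windows in that mutant. The ratios thus cannot separate the mark from background reads, and its part in the difference between X and autosomes was not tested.

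X was nearly absent from the lowest H3K9me3 levels. It holds 17.7% of the windows but 68 of the 14962 windows in the 3 lowest H3K9me3 bins (0.454%), and 1 of the 4988 windows in the lowest. The 5th percentile of H3K9me3 on X was 4.16, 5.95 and 5.07 RPKM, against 1.60, 4.32 and 2.76 RPKM on the autosomes. The upper end differed less: the 99th percentile was 41.4, 24.7 and 32.6 RPKM on X and 53.6, 30.0 and 40.4 RPKM on the autosomes.

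Along the chromosomes, H3K9me3 rose on particular arms while Pol II, pooled over the autosomes, was higher in the centers. Not every arm was lower: the right arm of chromosome II had mean Pol II of 11.9 and 13.1 RPKM, against 12.1 and 11.7 RPKM in its center. The mean level on autosome arms divided by that in the centers was 1.80, 1.26 and 1.50 for H3K9me3 and 0.770 and 0.799 for Pol II. The libraries of the marks did not overlap in this ratio (1.52 ± 0.269, SD, n = 3, against 0.785 ± 0.0204, n = 2). An exact two-sided permutation test gave p = 0.2, the smallest value that its 10 arrangements allow. The ratio of X to the autosomes was 0.933, 0.981 and 0.952 for H3K9me3 and 0.607 and 0.476 for Pol II, again without overlap and with p = 0.2 by the same exact permutation test. On medians instead of means the H3K9me3 ratio of X was above 1, at 1.05, so H3K9me3 on X has no direction that holds for both.

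Arms were unequal. On chromosome V the right arm had 18.9, 13.8 and 15.9 RPKM of H3K9me3 on average and 30.8% of its windows were H3K9me3-rich, whereas the left arm had 9.71, 9.76 and 9.80 RPKM and 6.47%. On chromosome II the sides were reversed, with 14.0, 11.8 and 12.9 RPKM and 20.7% on the left and 7.85, 8.75 and 8.52 RPKM and 4.87% on the right. The right arm of chromosome I had 16.9, 12.6 and 13.9 RPKM, or 13.6, 11.1 and 12.5 RPKM without the block at its very end described below. No autosome center had more than 2.22% of its windows H3K9me3-rich. On X, 8.37% of windows in the left arm were H3K9me3-rich, against 1.12% in the center and 2.36% in the right arm.

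The strongest concentration was narrow. In chromosome V between 80% and 85% of its length, the median window had 42.2, 24.1 and 31.6 RPKM of H3K9me3, 83.6% of windows were H3K9me3-rich and 1.47% Pol II-rich. Median Pol II there was 2.75 and 2.07 RPKM. In chromosome II between 10% and 15% of its length the median H3K9me3 was 29.8, 18.8 and 23.4 RPKM, 68.5% of windows were H3K9me3-rich, and median Pol II was 4.07 and 3.00 RPKM. Across the 20 bins of a chromosome, the Spearman correlation between the median levels was -0.79 on III, -0.73 on II, -0.62 on I, -0.53 on V, -0.23 on X and -0.16 on IV.

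**Figure D2:**
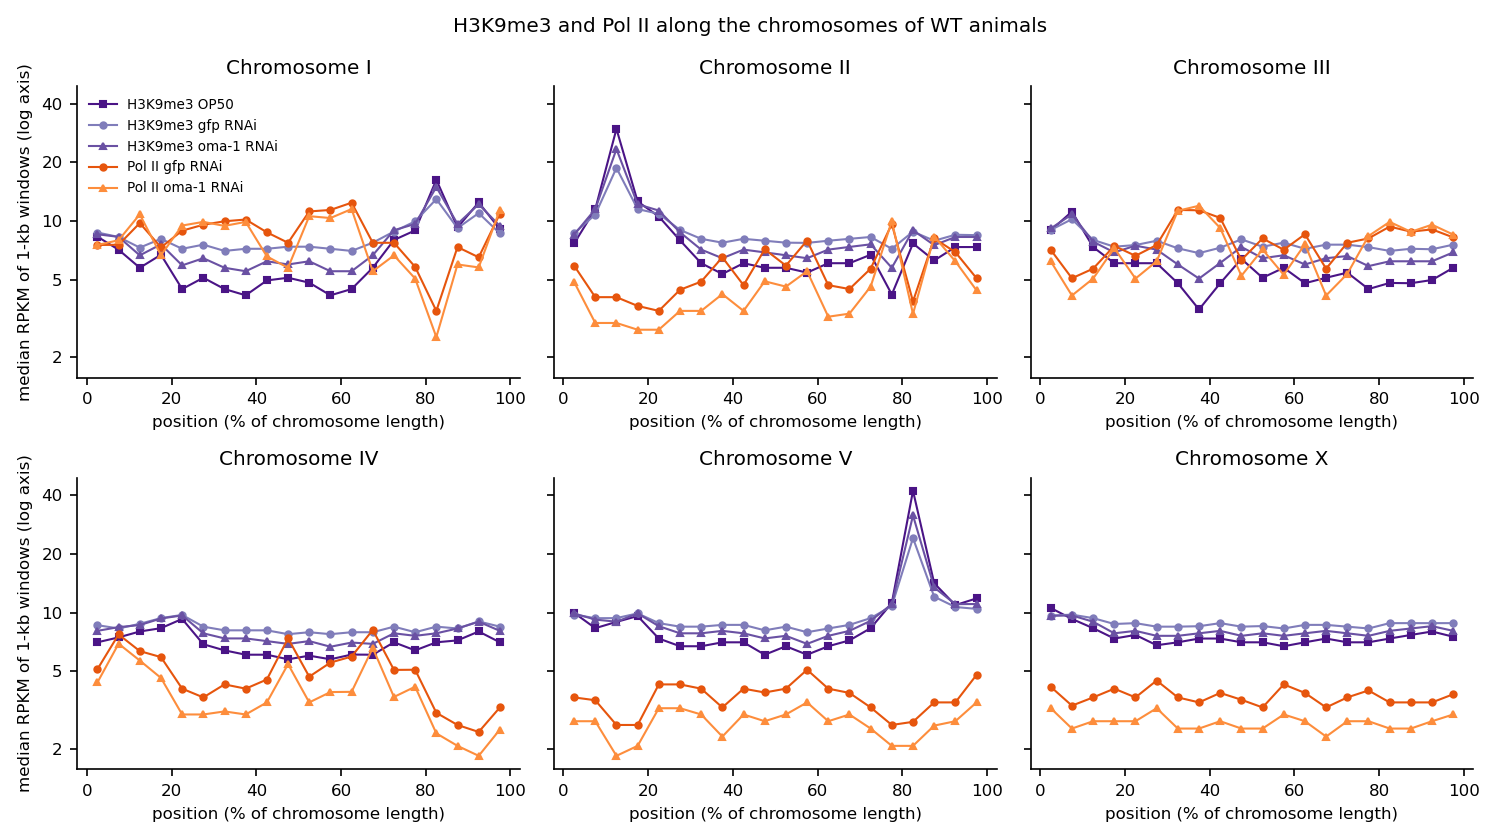
Median RPKM of 1-kb windows (log axis) in each WT library along the 6 chromosomes, in bins of 5% of chromosome length. H3K9me3 peaks at 80 to 85% of chromosome V (42.2, 24.1 and 31.6 RPKM) and at 10 to 15% of chromosome II. On X it is raised at the left end, with 10.6, 9.66 and 9.63 RPKM at 0 to 5% against 6.72, 8.29 and 7.60 RPKM at 55 to 60%.

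Rich windows of the 2 marks formed runs of different lengths. The 7794 H3K9me3-rich windows fell into 1714 runs, with gaps of at most 1 window, and the 8082 Pol II-rich windows into 2612 runs, both with a median length of 2 kb. Runs of 10 kb or more held 54.7% of the H3K9me3-rich windows in 210 runs and 22.6% of the Pol II-rich windows in 147 runs. The longest H3K9me3-rich run spanned 269 kb of chromosome V (17386 to 17655 kb) and the longest Pol II-rich run spanned 30 kb of chromosome I (2292 to 2322 kb).

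The 269-kb run had mean H3K9me3 of 51.1, 28.5 and 37.7 RPKM and mean Pol II of 3.70 and 3.36 RPKM. The next 2 in length also lay on the right of chromosome V (16970 to 17117 kb and 17132 to 17264 kb). All 10 longest H3K9me3-rich runs were on chromosome V or II, and none of them held a Pol II-rich window. Their mean Pol II ran from 1.96 to 6.01 RPKM across both Pol II libraries. The Pol II-rich run with the most windows, 27 on chromosome II (10537 to 10564 kb), had mean Pol II of 87.3 and 108 RPKM and mean H3K9me3 of 4.19, 6.99 and 4.84 RPKM. Of the 10 Pol II-rich runs with the most windows, 8 held no H3K9me3-rich window, and the others, both on chromosome I, held 1 and 2.

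Median Pol II did not step up at the border of H3K9me3-rich domains. At the 415 H3K9me3-rich runs of 5 or more windows, median H3K9me3 was 26.7, 18.2 and 22.8 RPKM in the edge window. It fell to 15, 11.7 and 13.8 RPKM 1 kb outside and to 11.8, 10.4 and 11.5 RPKM 2 kb outside. Median Pol II across the same edge was 4.28 and 3.23 RPKM in the edge window, 3.97 and 3.00 RPKM 2 kb outside and 4.28 and 3.23 RPKM 50 kb outside. At 5 kb inside the run it was 3.67 and 2.77 RPKM. Mean Pol II did differ, at 6.61 and 6.10 RPKM 5 kb inside, 7.92 and 7.18 RPKM in the edge window and 8.27 and 8.35 RPKM 5 kb outside.

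The edges of the 538 Pol II-rich runs of that size looked different. Median Pol II fell from 36.5 and 39.1 RPKM in the edge window to 16.6 and 17.5 RPKM 1 kb outside. H3K9me3 rose over the same stretch, from 2.88, 6.22 and 4.14 RPKM at the edge to 5.44, 7.57 and 6.68 RPKM 5 kb outside. At 50 kb it was 6.40, 7.93 and 7.14 RPKM, so most of the rise took place within 5 kb.

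**Figure D3:**
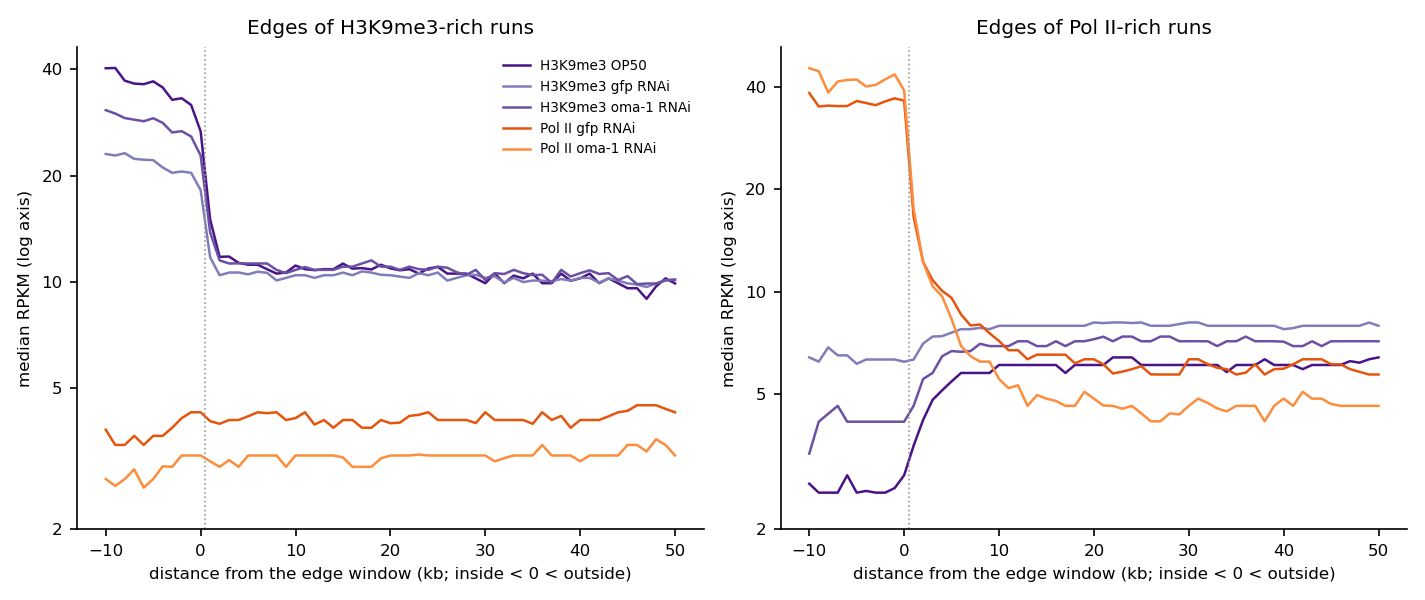
Median RPKM (log axis) at distances from the edge window of runs of at least 5 windows rich in H3K9me3 (left, 415 runs) or Pol II (right, 538 runs), by WT library; the dotted line is the border. Median Pol II is nearly level across H3K9me3 borders (4.28 and 3.23 RPKM at the edge and at 50 kb), while median H3K9me3 climbs outside Pol II borders.

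Compared with other windows of the same chromosome parts, H3K9me3-rich windows had a mean Pol II of 6.87 and 6.29 RPKM against 9.38 and 9.66 RPKM, ratios of 0.732 and 0.651. Medians set against windows rich in neither mark differed in direction between parts. That comparison leaves Pol II-rich windows out of one side only, which lowers the Pol II of that side. In the centers 40 of the 368 H3K9me3-rich windows were Pol II-rich, and 13.3% of all center windows were. Whether the directions hold against all other windows of each part was not tested. In the autosome centers the 368 H3K9me3-rich windows had a median Pol II of 7.34 and 6.24 RPKM, above the 4.65 and 3.23 RPKM of windows rich in neither mark. In the arms the 6731 H3K9me3-rich windows had 3.67 and 2.82 RPKM, below the 4.48 and 3.46 RPKM of arm windows rich in neither. On X the 695 H3K9me3-rich windows had 3.97 and 3.30 RPKM, above the 3.67 and 2.65 RPKM of X windows rich in neither. Of the 368 center windows, 35 belonged to the loci called GRH below, which hold 54 of all 27405 center windows. Those loci were defined by heterochromatin, so their presence among H3K9me3-rich windows is partly set by the definition.

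Window by window, limma on log2(RPKM + 1) called 48146 windows with at least 2-fold more H3K9me3 than Pol II and 23014 with at least 2-fold more Pol II, at a Benjamini-Hochberg adjusted p under 0.05 (48.3% and 23.1% of the windows tested). This split depends on how the marks are scaled to each other. Scaling the libraries to a common median gave 19587 and 31258 windows and quantile normalization gave 23895 and 24463, so that H3K9me3 took 38.5% and 49.4% of the calls in place of 67.7%. The median difference over all windows was 0.94 on the log2 scale as deposited, 0.16 after median scaling and 0.25 after quantile normalization. Calls made on all 3 scales numbered 18388 for H3K9me3 (18.4%) and 22548 for Pol II (22.6%).

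These calls separated arms, centers and X. On all 3 scales, 24.8% of windows on the autosome arms were called for H3K9me3 and 24.2% for Pol II. In the autosome centers it was 7.24% against 31.3%, and on X 16.0% against 4.04%. The right arm of chromosome V had the most H3K9me3 calls (48.3% of its windows on all 3 scales) and the center of chromosome I the most Pol II calls (45.1%).

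The regions with the largest differences toward H3K9me3 were again on the right of chromosome V in 8 of 10 cases, the other 2 on X. The first was 3 kb of X (1639 to 1642 kb), with H3K9me3 of 41.5, 24.1 and 30.9 RPKM and Pol II of 1.90 and 1.26 RPKM. Its mean log2 difference was 3.66 (mean SE 0.32, highest limma adjusted p 3.7e-06). The 131 called windows of chromosome V between 17132 and 17263 kb had a mean difference of 3.58, and 128 of them were called on all 3 scales.

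The 10 regions with the largest differences toward Pol II were spread over chromosomes II, III, IV, V and X. The first, on chromosome V (14683 to 14689 kb), had Pol II of 152 and 273 RPKM and H3K9me3 of 2.56, 6.64 and 4.14 RPKM. The mean log2 difference was -4.70 (mean SE 0.41, highest limma adjusted p 2.5e-05). On X, 16 windows between 16929 and 16945 kb had Pol II of 206 and 308 RPKM with H3K9me3 of 7.24, 8.65 and 7.34 RPKM, close to the X median. A region of chromosome II (11756 to 11762 kb) had 91.5 RPKM of Pol II in the gfp RNAi library and 447 RPKM in the oma-1 RNAi library, so its size rests on a single library.

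Windows rich in both marks were few. Of the 7794 H3K9me3-rich windows 222 were also Pol II-rich, which is 2.85% of the H3K9me3-rich and 2.75% of the Pol II-rich windows, where 8.1% of all windows were Pol II-rich. The deficit lay in the arms, where 2.26% of H3K9me3-rich windows were also Pol II-rich against 7.56% of all arm windows. In the centers these shares were 10.9% and 13.3%. On X they were 4.32% and 1.76%, so there H3K9me3-rich windows were more often Pol II-rich than X windows at large, with 30 windows in both classes.

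On the deposited scale 13 of the 222 windows were called for H3K9me3 (5.86%, against 48.3% of all windows) and 71 for Pol II (32%, against 23.1%). On all 3 scales 12 were called for H3K9me3 (5.41%, against 18.4%) and 27 for Pol II (12.2%, against 22.6%), so their Pol II calls were above the share of all windows on the deposited scale and below it on all 3. They comprised 50 regions of at least 2 windows, holding 157 windows, and 65 single windows. Only 11 of the 222 sat between an H3K9me3-rich and a Pol II-rich window. Of the 222, 187 touched a window rich in H3K9me3 and 184 a window rich in Pol II, counting neighbours rich in both. In the mutant libraries, which were not used to call windows rich, their median Pol II was 29.7 to 41.3 RPKM over 8 libraries. Their median H3K9me3 was 21.5 to 24.1 RPKM in hrde-1 and 10.8 to 11.8 RPKM in the triple mutant, against 30.6, 19.8 and 26.1 RPKM in WT.

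The largest region rich in both marks was the last 12 kb of chromosome I (15060 to 15072 kb), the chromosome end known to carry the ribosomal RNA gene array. Mean H3K9me3 was 1384, 648 and 592 RPKM and mean Pol II was 112 and 97.1 RPKM. These 12 windows held 1.77%, 0.822% and 0.756% of the H3K9me3 signal and 0.136% and 0.118% of the Pol II signal of their libraries. H3K9me3 libraries of the triple mutant still had 370 to 639 RPKM there, and its Pol II libraries had 330 and 276 RPKM. The genome build holds fewer copies of an array than the animal, so the level per copy was not measured.

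The next region behaved differently. Over 11 kb of chromosome II (14322 to 14333 kb), H3K9me3 was 72.4, 38.2 and 58.7 RPKM and Pol II 42.8 and 47.3 RPKM, and none of its windows was called in either direction. In the triple mutant H3K9me3 was 14.0 to 14.7 RPKM and Pol II 36.1 and 37.4 RPKM. Over 9 kb of chromosome III (6567 to 6576 kb) H3K9me3 was 31.5, 22.4 and 27.6 RPKM and Pol II 29.5 and 40.3 RPKM. There both signals were lower in the triple mutant, with H3K9me3 of 17.0, 17.8 and 16.4 RPKM and Pol II of 19.5 and 9.71 RPKM.

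Short regions joined high Pol II to H3K9me3. On chromosome V between 724 and 728 kb, Pol II was 180 and 259 RPKM with H3K9me3 of 35.3, 23.2 and 27.5 RPKM. On X between 150 and 156 kb, H3K9me3 was 51.5, 27.7 and 38.8 RPKM and Pol II 25.7 and 34.8 RPKM. The other regions among the 10 with the most such windows lay on chromosomes III, IV, V and X, with 4 to 6 windows each. Reads that match several loci were divided among them in the deposited values, so regions that are copies of each other share their signal.

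**Figure D4:**
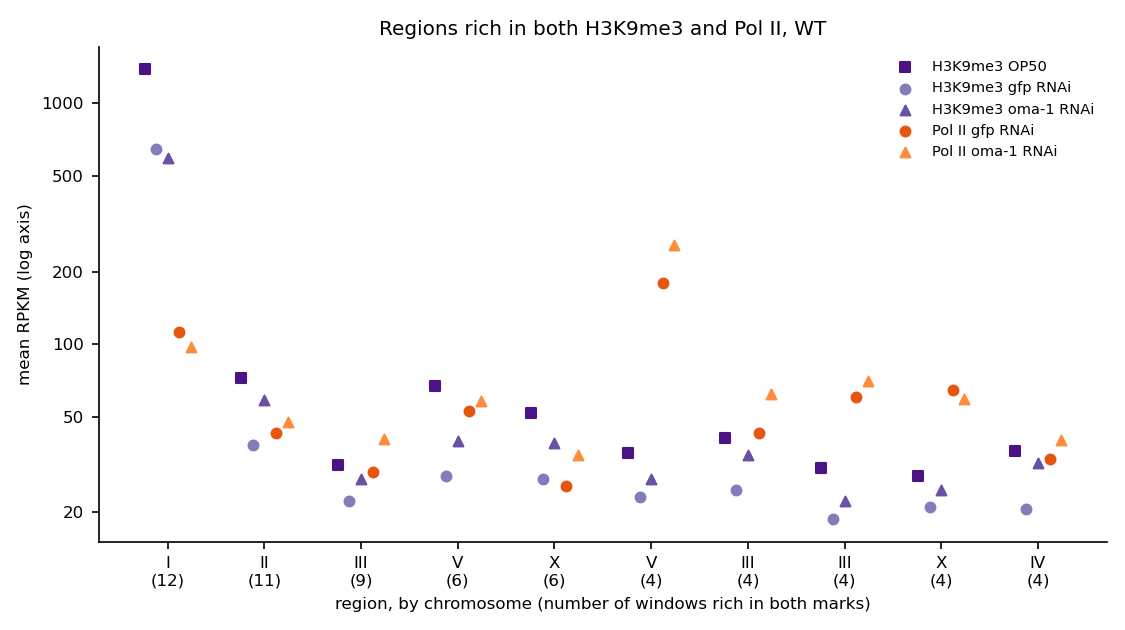
Mean RPKM (log axis) in each WT library for the 10 regions with the most windows rich in both marks, labelled by chromosome with the number of such windows. Chromosome I (1384, 648 and 592 RPKM of H3K9me3) stands above the rest, and the libraries of the other regions lie between 18.7 and 259 RPKM.

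Loci under germline nuclear RNAi, the small-RNA pathway that acts through the Argonaute HRDE-1, were read in the same libraries. The table marks 215 windows as GRH (heterochromatin that depends on this pathway) and 191 as GRTS (transcriptional silencing that depends on it), with 25 in both classes. They were defined by the same laboratory from WT and hrde-1 animals of an earlier study. At GRH windows median H3K9me3 was 31.4, 17.4 and 25.2 RPKM and median Pol II 11.9 and 12.4 RPKM. At GRTS windows H3K9me3 was 47.9, 25.3 and 36.9 RPKM and Pol II 5.11 and 4.12 RPKM.

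Pol II at GRH windows was thus above that of GRTS windows in both libraries. It was also above the 3.75 and 3.00 RPKM of the 7502 H3K9me3-rich windows outside both classes. GRTS windows were defined by transcription that the pathway silences in WT, so low Pol II there is partly set by the definition of the class. Of the 215 GRH windows 153 were H3K9me3-rich, 30 Pol II-rich and 19 both. GRH windows made up 8.56% of the windows rich in both marks and 0.216% of all windows. They were defined by heterochromatin present in WT, so this contrast is partly set by the definition of the class. Among all 7794 H3K9me3-rich windows, 153 were GRH. Of the 191 GRTS windows 161 were H3K9me3-rich and 0 were Pol II-rich. On the deposited scale limma called 102 GRH windows for H3K9me3 (47.4%, against 48.3% of all windows) and 14 for Pol II (6.51%, against 23.1%). It called 177 GRTS windows for H3K9me3 (92.7%) and 0 for Pol II. On all 3 scales 51 GRH windows (23.7%) and 144 GRTS windows (75.4%) were called for H3K9me3, against 18.4% of all windows. For Pol II 5 GRH windows (2.33%) and 0 GRTS windows were called on all 3 scales, against 22.6%.

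**Figure D5:**
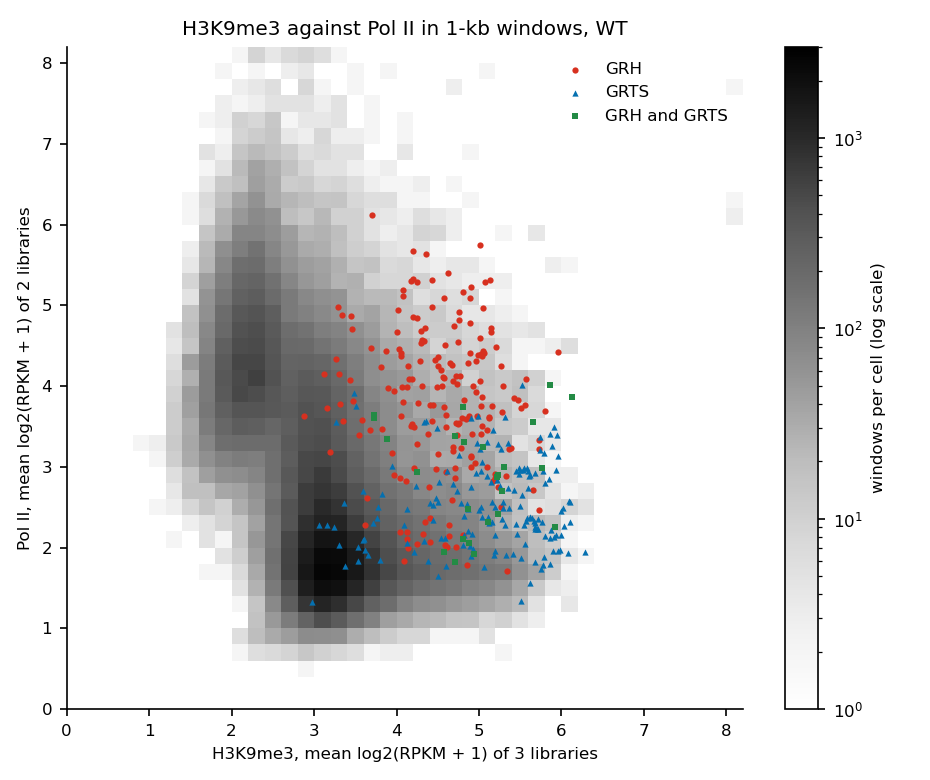
Windows by mean log2(RPKM + 1) of H3K9me3 (horizontal, 3 libraries) and Pol II (vertical, 2 libraries); grey is the number of windows per cell on a log scale, values above 8 are drawn at 8, and colored points are the 215 GRH and 191 GRTS windows. Pol II-high windows form an arm at low H3K9me3, H3K9me3-high windows form an arm at low Pol II, and GRH windows reach higher Pol II than GRTS windows.

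Single loci showed each pattern. The GRTS locus over the LTR retrotransposon cer8 (chromosome V, 18 windows between 5182 and 5201 kb) had H3K9me3 of 48.9, 27.8 and 39.1 RPKM and Pol II of 5.88 and 5.42 RPKM, and 17 of its windows were called for H3K9me3 on the deposited scale, on which 48.3% of all windows were. A GRH locus on the same arm (7 windows between 5472 and 5479 kb) had H3K9me3 of 56.8, 27.9 and 45.3 RPKM and Pol II of 13.3 and 12.5 RPKM, with 5 windows called on that scale. Both had high H3K9me3, and Pol II was higher at the GRH locus in each library.

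Actively transcribed control genes lay at the other end. The window of cdc-42 had Pol II of 55.6 and 73.1 RPKM and H3K9me3 of 2.88, 8.47 and 3.22 RPKM (limma adjusted p 8.1e-06). The window of tba-1, an alpha-tubulin gene, had Pol II of 52.8 and 50.9 RPKM and H3K9me3 of 1.60, 6.49 and 4.37 RPKM (limma adjusted p 1.1e-05). At the control region that the study used for ChIP (2 windows of chromosome II) Pol II was 3.67 and 2.54 RPKM and H3K9me3 7.52, 7.66 and 6.68 RPKM. The 2 windows of set-32, which encodes an H3K9 methyltransferase, had Pol II of 10.5 and 13.5 RPKM and H3K9me3 of 4.96, 8.02 and 6.57 RPKM, and neither was called.

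At oma-1 (2 windows of chromosome IV around the dsRNA target) the marks met in a single feeding. H3K9me3 was 3.84, 7.12 and 26.4 RPKM, high only in the oma-1 RNAi library, while Pol II was 41 RPKM on gfp RNAi and 45.2 RPKM on oma-1 RNAi. Both windows were called for Pol II over all 5 libraries, with a mean log2 difference of -2.05 and a highest limma adjusted p of 0.027. The oma-1 RNAi libraries alone had above-limit levels of both marks at this gene, with 229 H3K9me3 reads and 392 Pol II reads.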

How the data were processed

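Per the authors' methods, whole young adults were crosslinked and immunoprecipitated with antibodies to H3K9me3 or to Pol II phosphorylated on serine 2 of its repeat. Reads were aligned to the WS190 (ce6) genome with Bowtie 0.12.7 (version from the submitters' processing notes), only perfect alignments were kept, and a read with several matches was divided among them. The deposited values are RPKM per 1-kb window, normalized by the authors to the depth of each library and not to input, so differences in mappability and chromatin recovery remain in them. Column names were matched to samples through the study's list of libraries, and every value column was matched (0 left over). Columns holding the authors' own classes of methyltransferase-dependent windows were not used.

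Windows marked misannotated (506) and those with a mean under 3 RPKM over all 25 ChIP libraries with values, mutants included (22), were left out. Depth was estimated from the RPKM step of a single read. Between 82.1% and 83.9% of values were whole multiples of it (within 0.1 read), the rest holding divided reads, so no count test was run. Differences were tested with limma 3.58.1 (trend, R 4.3.3) on log2(RPKM + 1), H3K9me3 minus Pol II, adjusted over all windows by Benjamini-Hochberg and called at 0.05 and 2-fold. Fold changes are on that scale, which understates changes of low windows. The test was checked on simulated data. Ratios of library values were compared by exact permutation (scipy 1.17.1). Regions named in the text were the loci the study used, the 10 with the most windows rich in both marks, the 10 longest runs per mark and the 10 largest limma differences per direction. Members and lists were chosen with earlier results of these data known. No ce6 annotation was used, so windows are given by position (window start to window end in kb) and genes only where the study places them. The ribosomal RNA gene array at the right end of chromosome I is named from general knowledge, not from the files. The alternatives tried are those whose effect the closing section gives.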

Additional observations from a re-analysis of the deposited data

How the results depend on the processing

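The 20 limma regions and the 7 loci kept their direction under each alternative run. The regions had been chosen for the largest differences in these same libraries, so their kept direction is no independent support. Which mark had more calls changed with scale, and the X-to-autosome ratio of H3K9me3 crossed 1. The count of windows with more H3K9me3 than Pol II (48146) depended on scale: 19587 under median scaling, 23895 under quantile normalization, 20299 with a pseudocount of 5 and 18388 when called on all 3 scales (the last chosen after seeing the data). With feeding as a replicate block the counts were 49619 and 21693. Feedings, not numbered replicates, link the marks, and the block changed neither count by over 1.5 times. With any library left out, 41380 to 51260 windows had more H3K9me3 and 21497 to 23821 had more Pol II.

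The Spearman correlation (-0.43) was -0.53 without windows under 5 RPKM, -0.36 in the gfp RNAi libraries alone, -0.55 within the autosome centers, -0.042 within X, and -0.58, -0.67 and -0.71 for means over 10, 100 and 1000 kb; leaving out a library gave -0.43 to -0.42. The percent of H3K9me3-rich windows that were Pol II-rich (2.85%) was 1.44% for the top 5%, 6.75% for the top 20%, 3.80% by mean rank, 3.99% and 4.15% in the gfp RNAi and oma-1 RNAi libraries alone, 2.26% in arms, 10.9% in centers and 4.32% on X, and 2.77% to 3.89% with a library left out. The share of all windows that were Pol II-rich, 8.1% in the main setting, also moves with many of these settings. The percents alone therefore do not measure how far the overlap falls below that share. On medians the arm-to-center ratio was 1.23 for H3K9me3 and 0.877 for Pol II, and the X-to-autosome ratio 1.05 and 0.714. With the outer 25% on each side as arms, the arm-to-center ratio of Pol II was 0.751. In the gfp RNAi libraries alone the X-to-autosome ratio of H3K9me3 was 0.981. With a library left out, the H3K9me3 and Pol II ratios were 1.38 to 1.65 and 0.770 to 0.799 for arms, and 0.943 to 0.967 and 0.476 to 0.607 for X.

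Mean H3K9me3 at Pol II-rich windows over that of other windows of the same chromosome parts (0.801) was 0.881 on gfp RNAi, 0.705 on oma-1 RNAi, 0.758 to 0.836 with a library left out, and, chosen after seeing the data, 0.564 on medians and 0.654 without the last 12 kb of chromosome I. The same ratio of Pol II at H3K9me3-rich windows was 0.651 to 0.732 with a library left out. At the ChIP control region the single call for H3K9me3 was lost under median scaling, quantile normalization, a pseudocount of 5 and the 5 RPKM limit. A window of set-32 was called for Pol II under median scaling, quantile normalization, a pseudocount of 0.25 and without the gfp RNAi library of either mark. Division by input was planned and not run, since no input values were used here. Windows at the Pol II plateau held about 11 to 17 reads, so differences of a few reads between them were not detectable at this depth.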
